A study of Mus musculus with 451 samples.

Results

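The elastic fiber and microfibril genes Eln, Fbn1, Fbn2, Mfap2, Mfap4, Mfap5, Fbln1, Fbln2, Fbln5 and Emilin1 were examined in single tail tendon cells. They were chosen by name, as structural or assembly components of elastic fibers, and make up 10 of the 48795 gene symbols in the count table, of which 25841 had at least 1 read. The cells came from tail tendons of C57BL/6 mice aged 4 weeks, and 227 were wild type (WT) and 224 were Mkx-/-, lacking the tendon transcription factor Mohawk. Tendons were minced and digested with collagenase, passed through a strainer and captured one cell at a time on a microfluidic C1 chip. Since no label ties a cell to an animal or a chip, each genotype counts as 1 sample. The genotype differences below are thus unreplicated, and no p-value is given. How the Mkx-/- allele was built and how many animals were pooled are not given in the sources used here.

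Elastic fibers have a core of crosslinked elastin laid down on a scaffold of microfibrils. Fibrillins form the backbone of the microfibril, microfibril-associated glycoproteins decorate it, and fibulins and EMILINs join it to elastin and to the cell surface. Microfibrils also occur without elastin and hold latent transforming growth factor beta (TGF-beta) in the matrix. In tendon, elastic fibers and microfibrils lie between collagen fascicles and around the cells, in a tissue made mostly of type I collagen.

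WT cells held 13630536 reads in all and Mkx-/- cells held 14145394. The shallowest cell of each genotype held 13076 and 14226 reads, and no 2 cells had identical counts. Levels are given as CPM, the summed reads of a gene per 1000000 reads of the same group of cells, and each level or ratio carries a 95% interval for counting error alone. These intervals leave out the spread between cells and between animals. They are also too narrow for counting error, since the values are reads and not molecules. A log2 ratio was read as past the limit where a gene had at least 100 reads over both groups, differed by at least 1.5-fold between genotypes (2-fold between clusters) and had an interval off 0. Mkx itself stood at 33.8 CPM among WT and 15.5 CPM among Mkx-/- cells, so the table still counted reads on the targeted gene.

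On the mouse NCBIM37 assembly (GENCODE M1), Eln lies on chromosome 5 at 135179651-135223111, and Emilin1 on the same chromosome at 31215775-31223651. Fbn1 lies on chromosome 2 at 125126330-125333729 and Fbn2 on chromosome 18 at 58168277-58369580. Mfap2 lies on chromosome 4 at 140566333-140571899, Mfap4 on chromosome 11 at 61298933-61302402 and Mfap5 on chromosome 6 at 122455863-122479308. Fbln1 lies on chromosome 15 at 85036379-85116965, Fbln2 on chromosome 6 at 91162449-91222534 and Fbln5 on chromosome 12 at 102984775-103057265. These are whole gene spans, exons and introns together. Fbn1 overlaps Gm9913, and Mfap4 overlaps Mapk7, each on the opposite strand. Gm9913 had 1 read in WT and 3 reads in Mkx-/- cells, and Mapk7 had 62 and 53, against 49502 and 46744 for Fbn1 and 1977 and 1122 for Mfap4.

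Cells were clustered after the 10 genes and a wider list of 46 elastic fiber genes had been left out, so that these genes did not draw the clusters. A cluster called TPC-like (tendon progenitor cell) took 45.8% of the WT and 46.4% of the Mkx-/- cells. A cluster called TC-like (tenocyte) took 74 WT and 80 Mkx-/- cells, and 49 and 40 fell in a cluster left unnamed, cluster 3. Summed over Fstl1, Ly6a, Cd44, Thy1 and Tppp3, progenitor markers stood at 23848 CPM in WT TPC-like cells and 4505 CPM in WT TC-like cells. The tenocyte markers Col11a2, Col1a1, Col1a2, Sparc, Tnmd and Fmod summed to 27241 and 317850 CPM in the same cells. The genes that led the clusters by fold were Arl5c, Gm38134 and Wnt2 in TPC-like cells, Cyp2f2, Mmp10 and Mmp3 in cluster 3, and Cybrd1, Kcnk1 and Slpi in TC-like cells. No progenitor marker stood among the 10 leading genes of the TPC-like cluster, whereas Col11a2 and the cartilage marker Col2a1 both did so in the TC-like cluster, together with Ucma and Cilp2, which are also known from cartilage. Markers of other cells were low, with endothelial markers at 88.8 and 31.4 CPM, mural at 113.3 and 95.8, macrophage at 117.8 and 89.8, Schwann at 147.9 and 225.3, muscle at 1.83 and 0.566 and red cell markers at 9.46 and 0.919 CPM, WT before Mkx-/-. Single Mkx-/- cells held 73.1% of that genotype's Schwann and 52.8% of its macrophage reads. Cartilage markers stood at 173.4 and 176.5 CPM and epidermal markers at 37.7 and 36.5 CPM, and no cell had a read of Krt5, Acta1, Matn1 or either beta globin. In TC-like cells the cartilage markers stood at 361 and 346.5 CPM. Cells with at least 3 cartilage markers numbered 2 in WT and 15 in Mkx-/-, all of them TC-like. Their part in the TC-like ratios was not tested. The median depth was 43083 and 47490 reads per cell in WT and Mkx-/- TPC-like cells, 37566 and 47462 in cluster 3, and 82854 and 72897 in TC-like cells.

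Promoters of 6 of the 10 genes were examined, from RefSeq on GRCm38.p6, and those of Eln, Fbn2, Mfap4 and Mfap5 were not. Of the 6, 3 are shown, from genes on opposite sides of the contrast between clusters, and others on the same sides are not. Fbn1 and Fbln2 were higher in TPC-like cells, and Emilin1 was higher in TC-like cells. Each sequence is the 250 bases before the annotated start, 5′ to 3′ on the strand of the gene, and covers chr2:125506439-125506688 (minus strand), chr6:91212514-91212763 (plus strand) and chr5:30913536-30913785 (plus strand). Capitals mark matches, on either strand, to the GC box GGGCGG, the TATA box TATAAA, the AP-1 site TGANTCA and the SMAD box CAGAC.
Fbn1: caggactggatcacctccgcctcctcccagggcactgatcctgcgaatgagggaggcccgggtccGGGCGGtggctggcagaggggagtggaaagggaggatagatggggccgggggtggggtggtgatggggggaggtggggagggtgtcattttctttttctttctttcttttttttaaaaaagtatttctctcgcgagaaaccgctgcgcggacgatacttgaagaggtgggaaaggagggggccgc
Fbln2: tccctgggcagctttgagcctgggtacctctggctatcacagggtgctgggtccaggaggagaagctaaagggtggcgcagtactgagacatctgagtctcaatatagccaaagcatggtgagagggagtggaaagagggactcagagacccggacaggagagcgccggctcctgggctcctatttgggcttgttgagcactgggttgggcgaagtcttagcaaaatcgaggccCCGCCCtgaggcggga
Emilin1: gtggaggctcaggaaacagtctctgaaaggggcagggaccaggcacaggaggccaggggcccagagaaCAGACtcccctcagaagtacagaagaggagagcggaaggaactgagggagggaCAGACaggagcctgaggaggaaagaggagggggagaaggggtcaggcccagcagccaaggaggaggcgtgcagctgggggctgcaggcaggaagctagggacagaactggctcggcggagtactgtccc

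The Fbn1 and Fbln2 windows each held 1 GC box and none of the other motifs. The Emilin1 window held 2 SMAD boxes and none of the others. Fbln5, also higher in WT TPC-like cells but not shown, had 2 annotated starts. The window of the first held 2 GC boxes and that of the second 2 SMAD boxes, so these motifs did not part by cluster side. Among 32851 promoter windows of the same length, 32.7% held a GC box, 42.2% a SMAD box, 12.4% a TATA box and 6.75% an AP-1 site, so that the matches found here are common ones. A match is a stretch of letters and was not examined for binding.

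The clearest pattern over cell states was a division among the genes. Among WT cells, Mfap5, Fbn1, Fbln2, Fbln5 and Eln were over 2-fold higher in TPC-like than in TC-like cells, whereas Mfap4 and Emilin1 were over 2-fold lower. Thus 5 of the 9 genes with enough reads were higher, beside 34.7% of all genes, and 2 were lower, beside 7.11% of all genes. In Mkx-/- cells, 3 of 9 were higher (Fbn1, Mfap5 and Fbln2), beside 25.2% of all genes, and 3 were lower (Mfap4, Emilin1 and Fbn2), beside 7.8%. Fbln5 fell just short of the 2-fold limit in Mkx-/- cells, at 0.99 (0.83 to 1.16). The 9 genes differed by 1 between genotypes, since Fbn2 fell 1 read short of the minimum in WT cells, where its log2 ratio was -6.29 (-11.61 to -3.78), and Fbln1 was under it in Mkx-/- cells. Over the 8 genes with enough reads in both genotypes, the log2 ratio had a median of 1.29 in WT cells and 0.45 in Mkx-/- cells, beside 0.67 and 0.44 over all genes with enough reads in both. Col1a1, Col1a2 and Sparc took 30.9% of all reads in WT TC-like cells but 2.71% in WT TPC-like cells. The counts above were not set relative to the median of all genes. In WT cells, Eln at 1.01 and Fbln5 at 1.57 lay less than 2-fold above that median.

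**Figure D1:**
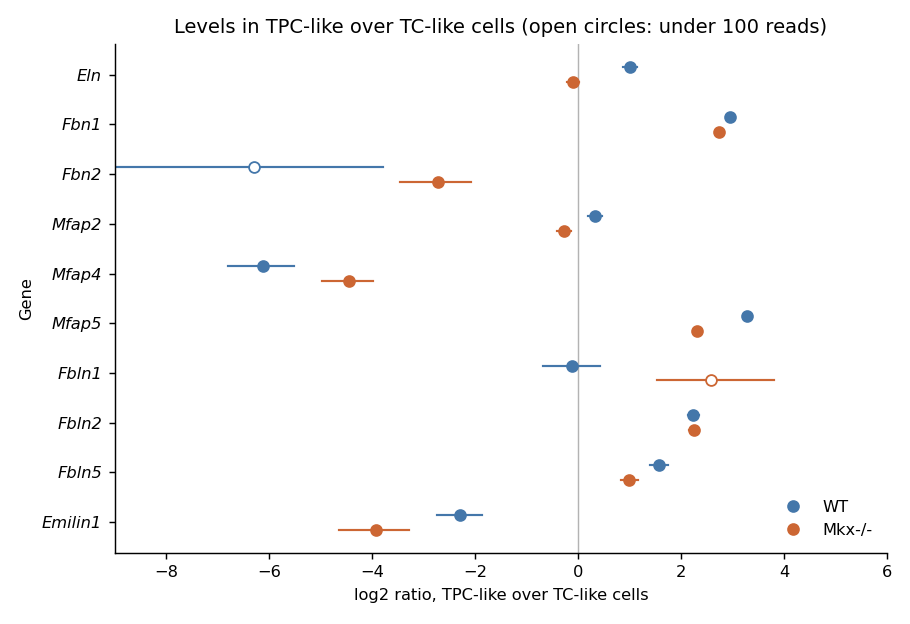
Log2 ratio of the summed level in TPC-like over TC-like cells (x axis) for each gene (y axis), in WT (blue) and Mkx-/- cells (orange), with 95% counting intervals as lines. Fbn1, Mfap5 and Fbln2 lie to the right in both genotypes and Mfap4 and Emilin1 to the left, while Eln lies at 1.01 in WT and at -0.10 in Mkx-/- cells; the interval of Fbn2 in WT runs past the axis.

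As counted reads, with no correction for gene length, the 10 genes took 1.67% of all reads in WT TPC-like cells and 1.34% in Mkx-/- TPC-like cells. The shares were 0.795% and 0.559% in cluster 3 and 0.263% and 0.293% in TC-like cells. Fbn1 and Mfap5 together held 86.8% of these reads in WT and 85.6% in Mkx-/- cells. At 13000 reads per cell, to which every cell was thinned, a cell showed a median of 4 of the 10 genes in both genotypes, with a WT range of 1 to 7 and an Mkx-/- range of 0 to 8. Without thinning, the median was 5 in both.

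**Figure D2:**
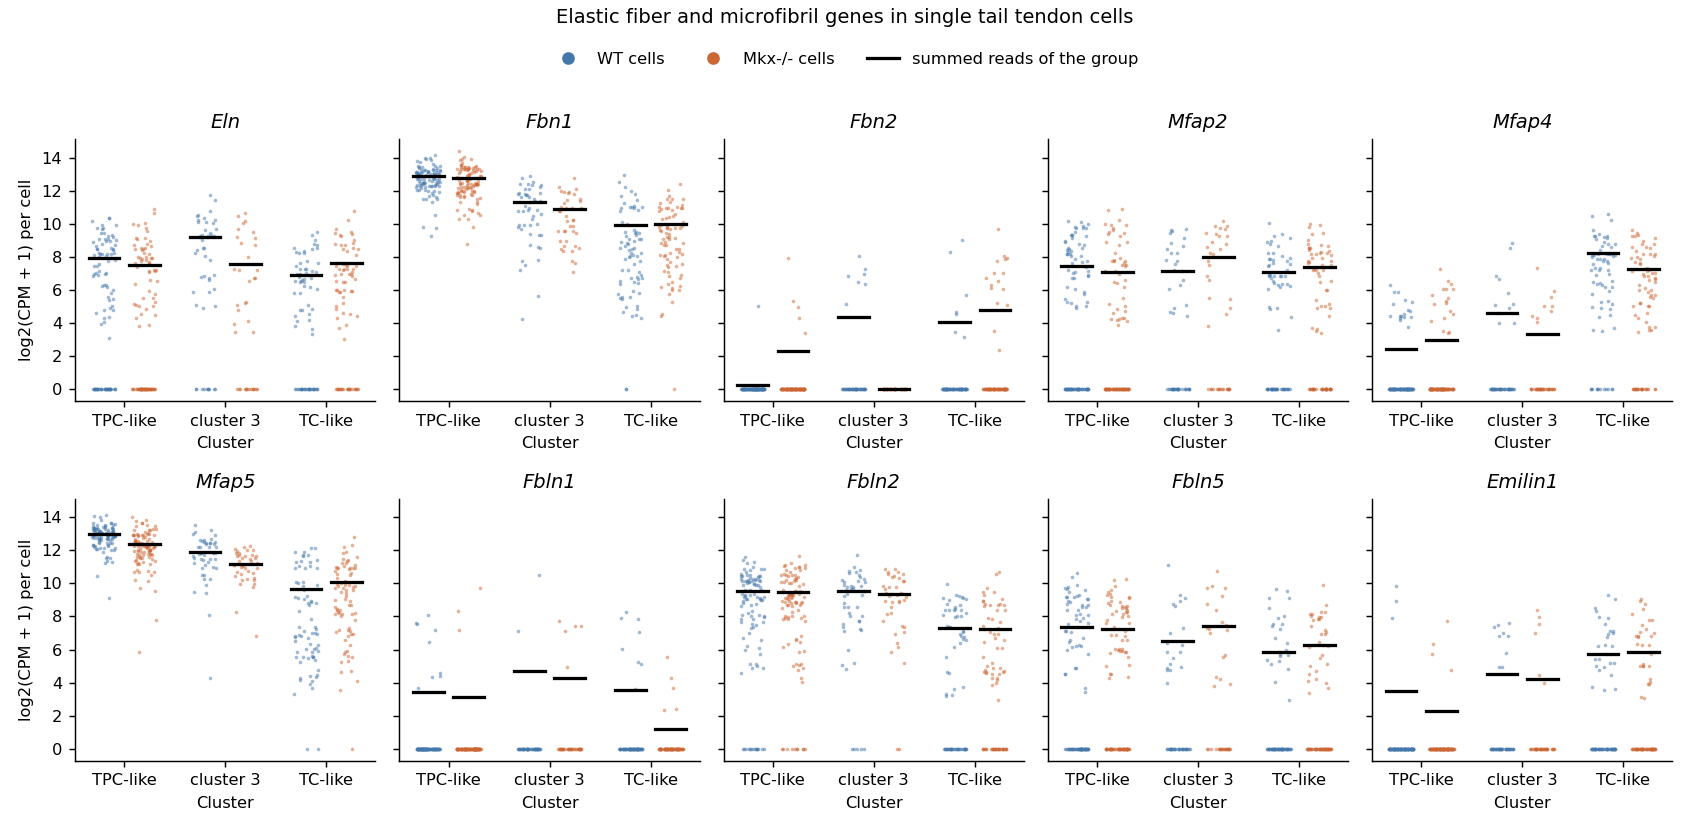
Level of each gene in every cell as log2(CPM + 1) (y axis), by cluster (x axis), with WT cells in blue, Mkx-/- cells in orange and the level of the summed reads as a black line. Fbn1 and Mfap5 form a narrow band in TPC-like cells and spread widely in TC-like cells, whereas Mfap4 is mostly at 0 outside TC-like cells.

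Elastin, the rubber-like core protein, is encoded by Eln. In cluster 3, Eln was lower in Mkx-/- cells than in WT cells. The cells ranged from 0 to 3363 CPM with a median of 347 in WT, and from 0 to 1612 CPM with a median of 34.8 in Mkx-/-. The ranges overlapped, and the WT median lay above the upper quartile of the Mkx-/- cells, which was 294 CPM. The summed level was 579 CPM (95% interval 548 to 612) in WT against 193.1 CPM (174.2 to 213.5) in Mkx-/-, which gave a log2 ratio of -1.59 (-1.75 to -1.42). At 13000 reads, 36 of 49 WT cells (73.5%, exact interval 58.9 to 85.1) and 17 of 40 Mkx-/- cells (42.5%, 27.04 to 59.1) had an Eln read. Leaving out the leading cell of each genotype gave -1.55.

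In TC-like cells, Eln went the other way. Its level was 118.9 CPM in WT against 197.1 CPM in Mkx-/-, which gave a log2 ratio of 0.73 (0.60 to 0.86). The medians over cells were 44.2 and 89.03 CPM, with highest cells of 719 and 1774 CPM. In TPC-like cells the level was 239 CPM in WT against 183.5 CPM in Mkx-/-, which gave a log2 ratio of -0.38 (-0.51 to -0.26), within 1.5-fold. The order of the clusters thus differed between genotypes. In WT cells Eln was highest in cluster 3, then TPC-like, then TC-like cells, and in Mkx-/- cells the levels of 183.5, 193.1 and 197.1 CPM had overlapping intervals. Over all cells the log2 ratio was -0.31 (-0.39 to -0.24), and it was -0.71 when the clusters were given equal weight.

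The TC-like ratios need a shift to be read. Col1a1, Col1a2 and Sparc took 30.9% of all reads in WT and 21.7% in Mkx-/- TC-like cells, and the median log2 ratio of all genes there was 0.20. Relative to that median, Eln stood at 0.53, Mfap5 at 0.20, Fbln5 at 0.24, Mfap2 at 0.077, Fbn1 at -0.12, Fbn2 at 0.57 and Mfap4 at -1.16. On this scale Eln and Fbn2 lay inside the 1.5-fold limit and Fbn1 turned from higher to lower. In the other clusters and over all cells, the same median lay within 0.055 of 0.

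Fibrillin 1, the main backbone protein of microfibrils, is encoded by Fbn1. It was read in every TPC-like cell of both genotypes, from 626 to 18138 CPM (median 7081) in WT and from 446 to 21425 CPM (median 5571) in Mkx-/-. The summed levels were 7434 and 6823 CPM, which gave a log2 ratio of -0.12 (-0.14 to -0.10). In cluster 3 they were 2535 and 1942 CPM, a ratio of -0.39 (-0.44 to -0.33). In TC-like cells they were 964 and 1022 CPM, a ratio of 0.084 (0.03 to 0.13). No cluster therefore passed the 1.5-fold limit for Fbn1. From TPC-like to TC-like cells, by contrast, the log2 ratio was 2.95 (2.91 to 2.99) in WT against 2.74 (2.70 to 2.78) in Mkx-/- cells, with cluster 3 between them in both genotypes. Among TC-like cells at 13000 reads, 81.1% of WT (70.3 to 89.3) and 92.5% of Mkx-/- cells (84.4 to 97.2) held a read, with medians of 322 and 582 CPM over cells.

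Fibrillin 2, encoded by Fbn2 and used mainly in developing tissue, was sparse. Only 15 of 227 WT and 21 of 224 Mkx-/- cells held a read, and 2 WT and 4 Mkx-/- cells held most of the reads. In TC-like cells it stood at 15.4 and 26.5 CPM, which gave a log2 ratio of 0.78 (0.42 to 1.15). One WT cell held 45.9% of the WT reads there, and with the top cell of either genotype removed the ratio was 1.38. It was 1.97 at 13000 reads, and inside the limit at 0.45 in cells with fewer than 5000 genes and 0.32 in cells with at least 2500. In cluster 3 there were 44 reads in WT and 0 in Mkx-/- cells, where 0 of 40 cells allows a share of up to 8.81% at the upper exact bound. In TPC-like cells there was 1 read in WT and 21 in Mkx-/- cells, which gave a log2 ratio of 4.35 with a counting interval of 1.71 to 9.72, and 1 cell held 76.2% of the latter. Over all cells the ratio was 0.46, and it was -0.23 with the clusters weighted equally, so that its direction rested on the weighting.

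Mfap2 and Mfap5 encode the microfibril-associated glycoproteins MAGP1 and MAGP2, which bind fibrillins. Mfap5 was lower in Mkx-/- cells of cluster 3 and of the TPC-like cluster, and higher in those of the TC-like cluster. TPC-like cells ranged from 563 to 17958 CPM (median 7803) in WT and from 55.8 to 16675 CPM (median 4876) in Mkx-/-. The summed levels were 7943 and 5384 CPM, which gave a log2 ratio of -0.56 (-0.58 to -0.54), just inside the 1.5-fold limit. Over the alternatives run, this ratio stayed between -0.59 and -0.51. In cluster 3 the cells ranged from 18.1 to 11682 CPM (median 3611) in WT and from 111.4 to 4882 CPM (median 2233) in Mkx-/-. The log2 ratio there was -0.70 (-0.75 to -0.64), past the limit, with summed levels of 3779 and 2331 CPM. It was -0.58, just inside the limit, when genes differing over 2-fold were left out of the clustering. The progenitor markers summed to 11716 and 9175 CPM in the same cells, and their part in this ratio was not tested.

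In TC-like cells, Mfap5 had a median over cells of 134.6 CPM in WT against 639 CPM in Mkx-/-, and upper quartiles of 1032 and 1756 CPM. The ranges, 0 to 4476 and 0 to 7055 CPM, overlapped almost wholly. The summed levels were 819 and 1084 CPM, which gave a log2 ratio of 0.40 (0.35 to 0.46), within 1.5-fold. The progenitor markers moved in the same direction in these cells, from 4505 to 5455 CPM. Over TC-like cells, Mfap5 had a Spearman's rho of 0.80 in WT and 0.73 in Mkx-/- with those summed markers, as a description over cells that share a library method and differ in depth. The log2 ratio of TPC-like over TC-like cells was 3.28 (3.24 to 3.32) in WT against 2.31 (2.28 to 2.35) in Mkx-/- cells.

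Mfap2 showed little division between states. Its levels in WT were 171.8 CPM in TPC-like cells, 143.3 CPM in cluster 3 and 136.7 CPM in TC-like cells, with overlapping intervals for the latter pair. In Mkx-/- cells the levels were 137.7, 254 and 166.02 CPM. Cluster 3 passed the limit, with a log2 ratio of 0.82 (0.62 to 1.03) and medians over cells of 0 and 43.7 CPM, but the ratio was 0.43 when cells were clustered in 10 dimensions. TPC-like cells had a ratio of -0.32 (-0.46 to -0.18) and TC-like cells one of 0.28 (0.15 to 0.41).

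Mfap4 encodes a fibrinogen-related matrix protein that binds tropoelastin and fibrillin. Of the genes with at least 100 reads, it leaned most toward TC-like cells. The log2 ratio of TPC-like over TC-like cells was -6.12 (-6.79 to -5.51) in WT against -4.45 (-4.97 to -3.98) in Mkx-/- cells. At 13000 reads, 48 of 74 WT TC-like cells (64.9%, 52.9 to 75.6) held a read, against 4.81% of WT TPC-like cells (1.58 to 10.9). The genes whose level over cells followed it most closely were Col1a1, Col1a2 and Col11a1, with the smaller rho of the 2 genotypes at 0.59, 0.58 and 0.58.

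Mfap4 was also lower in Mkx-/- than in WT TC-like cells. The cells ranged from 0 to 1521 CPM (median 154.02) in WT and from 0 to 784 CPM (median 61.04) in Mkx-/-, and the ranges overlapped. The summed levels were 299.8 CPM (286 to 314) and 154.3 CPM (145.2 to 163.9), which gave a log2 ratio of -0.96 (-1.07 to -0.85). Over all cells the levels were 145.04 and 79.3 CPM, a ratio of -0.87 (-0.98 to -0.76). A single WT cell held 15.6% of the WT reads, and with the leading cell of either genotype left out the ratio over all cells was -0.74. Without the 8 WT and 10 Mkx-/- cells that carried 3 or more endothelial or mural markers, it was -0.43 over all cells and -0.58 in TC-like cells, both inside the limit. At 13000 reads it was -0.52 over all cells, also inside the limit. Mural markers summed to 138.1 and 130.7 CPM and endothelial markers to 79.03 and 10.99 CPM in WT and Mkx-/- TC-like cells, and 1 WT cell held 78.3% of the endothelial reads.

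Among the fibulins, Fbln2 encodes a fibulin that binds elastin, fibrillin and basement membrane proteins. It did not pass the limit between genotypes in any cluster. Its levels were 729.7 and 706 CPM in TPC-like cells, 735 and 661 CPM in cluster 3 and 154.8 and 149.1 CPM in TC-like cells, WT before Mkx-/-. The genotype ratios in these clusters were -0.048 (-0.11 to 0.02), -0.15 (-0.26 to -0.05) and -0.054 (-0.18 to 0.07). TPC-like over TC-like cells gave a log2 ratio of 2.24 (2.14 to 2.34) in both genotypes. As counted, Fbln2 thus had the same ratio to 2 decimals in WT and Mkx-/- cells, where those of Fbn1 and Mfap5 were smaller in Mkx-/- cells. The median ratio over all genes with enough reads was also smaller there, at 0.44 against 0.67 in WT cells. Of the genes over 2-fold higher in TPC-like cells of both genotypes summed, 59.1% had a smaller ratio in Mkx-/- cells. Relative to that median, Fbln2 was higher in Mkx-/- cells and Fbn1 was no longer smaller, while Mfap5 stayed smaller.

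Fbln5 encodes fibulin 5, which guides elastin onto microfibrils. It was read at 13000 reads in 41.3% of TPC-like cells in each genotype, 43 cells in both. In cluster 3 its level was 89.02 CPM in WT against 167.3 CPM in Mkx-/-, which gave a log2 ratio of 0.91 (0.65 to 1.17), although the median cell was at 0 in both and the ratio was 0.56 at 13000 reads, inside the limit. A single WT cell held 30.3% of the WT reads in that cluster. The ratio was -0.13 (-0.28 to 0.01) in TPC-like and 0.44 (0.24 to 0.64) in TC-like cells.

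Fbln1, which encodes the fibulin of many loose matrices, was rare. It was read in 19 WT cells, at 12.8 CPM, and in 13 Mkx-/- cells, at 6.15 CPM, which gave a log2 ratio of -1.05 (-1.44 to -0.67). Only 4 WT and 3 Mkx-/- cells held most of these reads, and the highest single cell reached 1479.6 CPM in WT and 854 CPM in Mkx-/-. The ratio therefore rested on very few cells. At 13000 reads, 6.17% of WT cells (3.41 to 10.1) and 4.02% of Mkx-/- cells (1.85 to 7.49) had a read.

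Emilin1 encodes a glycoprotein at the interface of elastin and microfibrils. Like Mfap4, it was higher in TC-like cells. The log2 ratio of TPC-like over TC-like cells was -2.30 (-2.74 to -1.87) in WT against -3.92 (-4.65 to -3.28) in Mkx-/- cells. The TPC-like side was only 53 reads in 3 WT cells and 20 reads in 4 Mkx-/- cells, and 1 cell held 55% of the latter. The size of these ratios, and their difference between genotypes, thus rested on very few cells. In TC-like cells 21.6% of WT (12.9 to 32.7) and 22.5% of Mkx-/- cells (13.9 to 33.2) held a read at 13000 reads. The levels there were 51.2 and 57.7 CPM, a genotype ratio of 0.17 (-0.04 to 0.39), and over all cells the ratio was 0.038 (-0.16 to 0.23).

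**Figure D3:**
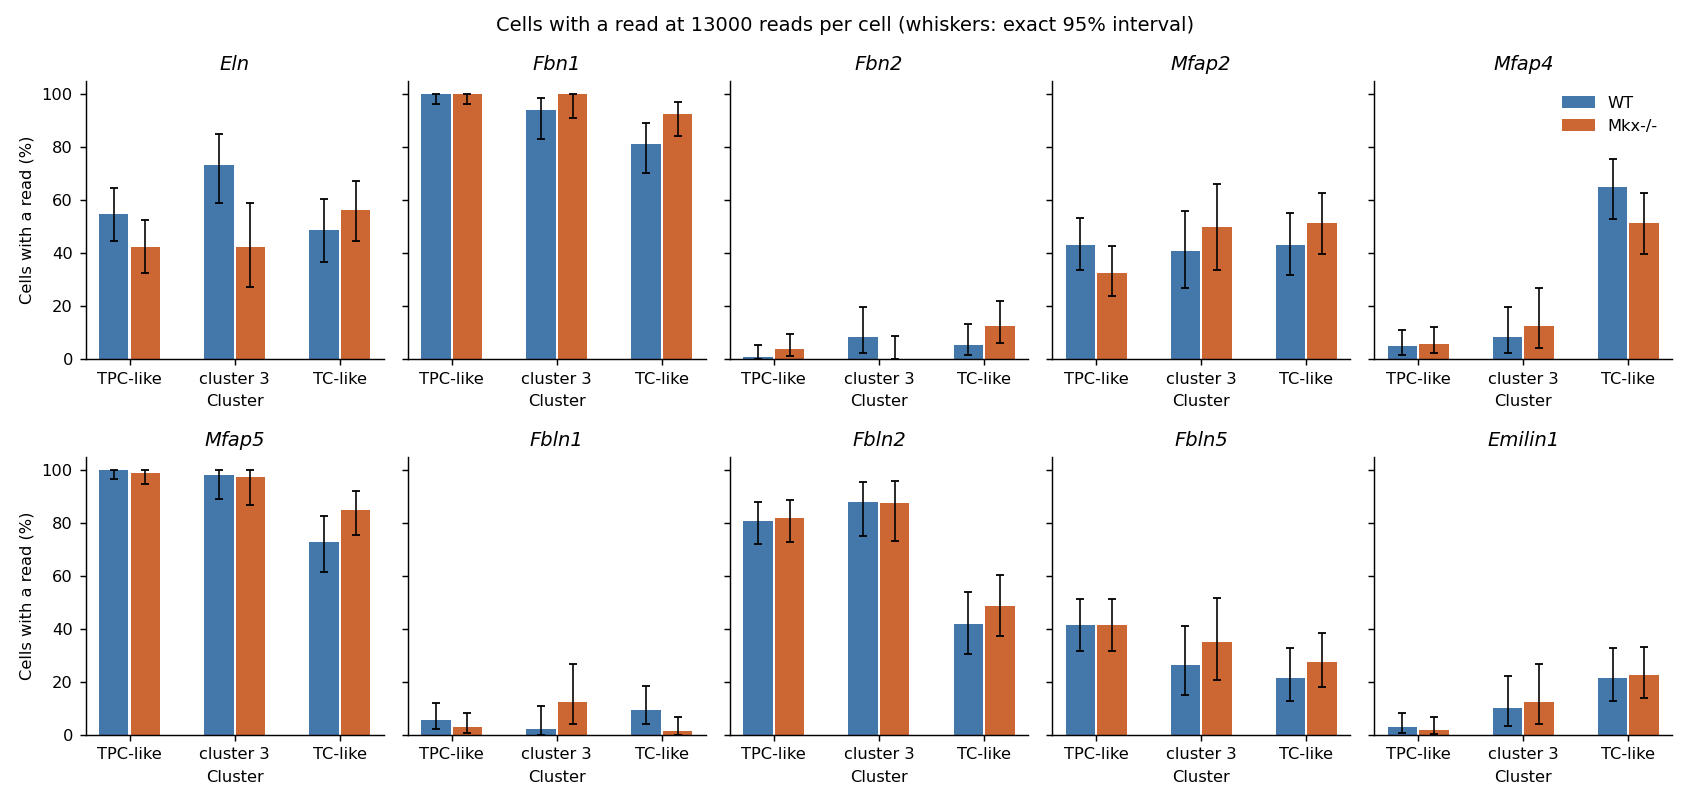
Share of cells with at least 1 read after each cell was thinned to 13000 reads (y axis, percent), by cluster (x axis), in WT (blue) and Mkx-/- cells (orange), with exact 95% intervals as whiskers. In cluster 3, Eln was read in 73.5% of the WT and 42.5% of the Mkx-/- cells, while Mfap4 was read in 64.9% and 51.3% of TC-like cells and in 12.5% or fewer of the others.

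Read together over all cells, 2 of the 10 genes were past the 1.5-fold limit between genotypes, both lower in Mkx-/- cells (Mfap4 and Fbln1), beside 29.2% of all genes past it in either direction. Their median log2 ratio was -0.13, beside 0.055 over all genes. In TPC-like cells, 0 of 6 were past the limit, beside 33.4% of all genes. In cluster 3, 4 of 6 were past it, Eln and Mfap5 lower and Mfap2 and Fbln5 higher, beside 42.3% of all genes. In TC-like cells, 3 of 9 were past it, Eln and Fbn2 higher and Mfap4 lower, beside 41.2%. Except in cluster 3, the share of these genes past the limit lay at or below that of all genes.

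**Figure D4:**
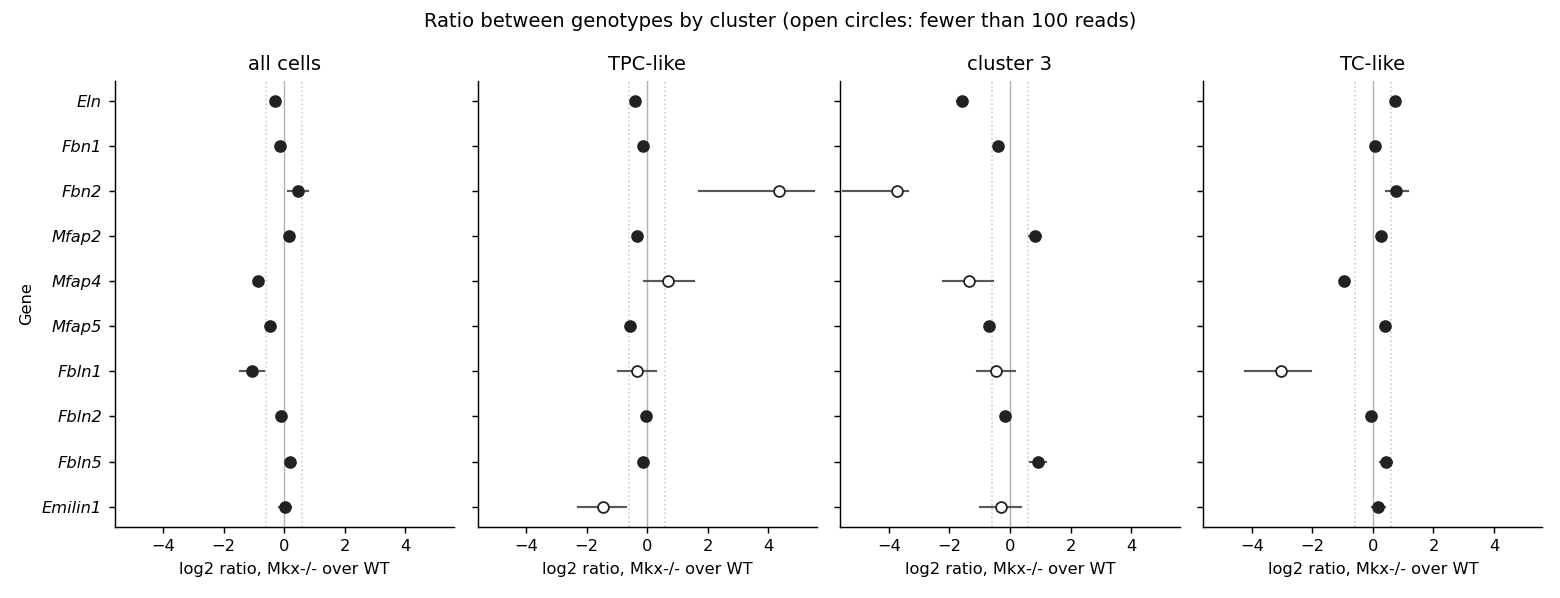
Log2 ratio of Mkx-/- over WT (x axis) for each gene (y axis) over all cells and in each cluster, with 95% counting intervals as lines, the 1.5-fold limits as dotted lines and open circles for genes with under 100 reads. Eln lies at -1.59 in cluster 3 and at 0.73 in TC-like cells; lines that reach the frame run past it, and Fbn2 in cluster 3 is a bound from 0 reads in Mkx-/- cells.

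Eln, Fbn1, Mfap2 and Mfap5 were lower in Mkx-/- TPC-like cells and higher in Mkx-/- TC-like cells, with both intervals off 0. Opposite directions of this kind were seen in 20.1% of all genes with enough reads in both clusters, and lower in TPC-like with higher in TC-like cells in 14.1%. After median scaling, Fbn1 lay on the same side in both clusters and only Eln and Mfap5 kept both intervals off 0.

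Fbn1 and Mfap5 followed each other over cells, with a Spearman's rho of 0.77 in both genotypes over all cells. Within each cluster the rho was lower. It was 0.60 in WT and 0.63 in Mkx-/- TC-like cells, 0.18 and 0.43 in TPC-like cells, and 0.29 and 0.17 in cluster 3. The value over all cells thus also holds the differences between clusters, as do the likeness values that follow. Likeness was then ranked over the 4711 genes read in enough cells, with the 10 genes themselves left out of the ranking. The one most like Fbn1 was Fstl1, a progenitor marker, with 0.85 in WT and 0.84 in Mkx-/- cells, followed by Cd55 and Cd248, both below Mfap5. For Mfap5 the nearest were Fstl1, Ugp2 and Cd34, all of which also came below Fbn1. For Fbln2 they were Col3a1, Myoc and Gsn, with Fbn1 and Mfap5 just above Gsn. No gene came above a smaller rho of 0.21 for Eln (Gprc5a, Rps3a2 and Scd1), 0.18 for Mfap2 (Ppp2r5c, Mmp2 and Mmadhc) or 0.19 for Fbln5 (Dnajc10, Pi16 and Gnpnat1). These values describe cells of unequal depth and are weak where counts are sparse. Fbn2, Fbln1 and Emilin1 were read in too few cells for such a measure.

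The wider list held 46 genes, among them crosslinking enzymes, binding proteins, elastin-cutting enzymes and receptors of elastic fibers and 4 further genes listed only for their MFAP symbol, and 39 had enough reads over all cells. Of these, 8 were past the limit and higher in Mkx-/- cells, 5 were past it and lower, and 26 were within it, with a median log2 ratio of 0.19. The 33.3% past the limit stood beside 29.2% of all genes. In TPC-like cells 5 of 32 were higher and 2 lower, or 21.9% past the limit beside 33.4% of all genes. In cluster 3 the counts were 10 of 28 and 2, or 42.9% beside 42.3%. In TC-like cells 14 of 35 were higher and 6 lower, or 57.1% beside 41.2%. Relative to the median shift of 0.20 in TC-like cells, 12 were higher and 7 lower, and 20.3% of all genes were then higher and 18.6% lower.

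Crosslinking is done by lysyl oxidases. Lox itself was at 995 CPM in WT against 647 CPM in Mkx-/-, which gave a log2 ratio of -0.62 (-0.66 to -0.58). In TC-like cells, where most of its reads lay, it was at 1930 and 1143 CPM (ratio -0.76, -0.80 to -0.71). Cluster 3 also had a lower level (-1.16, -1.38 to -0.93). In TPC-like cells Lox went the other way, at 141.9 and 193.25 CPM (0.45, 0.31 to 0.59), within the limit. Loxl4 was at 20.9 and 8.20 CPM (-1.35, -1.67 to -1.03) and Loxl3 at 5.502 and 9.12 CPM (0.73, 0.31 to 1.16). As a mean over cells the ratio of Loxl3 was 0.36, inside the limit, and 1 WT cell held 29.3% of its WT reads. Loxl1, the family member best known for elastin and named here after its values were seen, was within the limit over all cells but at 63.3 and 133.3 CPM in TC-like cells (1.08, 0.90 to 1.25). Lox and Loxl1 thus lay on opposite sides in the same TC-like cells.

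Latent TGF-beta binding proteins sit on microfibrils. Ltbp1 was lower in Mkx-/- cells over all cells (146.7 and 86.3 CPM, log2 ratio -0.77, -0.87 to -0.66), and also in TPC-like (-0.80) and TC-like cells (-0.89). In cluster 3 its ratio was 0.023 (-0.36 to 0.41). Ltbp2 was higher, at 92.1 and 144.6 CPM (0.65, 0.55 to 0.75). In TC-like cells it had 50 reads in 9 WT cells and 321 reads in 25 Mkx-/- cells. The relatives Ltbp3 and Ltbp4 were within the limit over all cells and higher in TC-like cells, by 0.61 and 0.80 on the log2 scale. Relative to the median of all genes there, they stood at 0.41, inside the limit, and 0.60.

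Other fibulins and hemicentins included Fbln7, with 1 read in WT and reads in 18 Mkx-/- cells (15.98 CPM), which gave a log2 ratio of 7.77 with a counting interval of 5.27 to 13.08. Of the 18 cells, 16 were TC-like. Hmcn2, a hemicentin, had 42 and 234 reads (2.42, 1.95 to 2.93). Of 6 microfibril-binding ADAMTS and ADAMTS-like genes with enough reads over all cells, 2 were past the limit and higher and 1 was past it and lower. Adamts6 was at 6.60 and 10.04 CPM (log2 ratio 0.60), Adamts10 at 5.28 and 9.26 CPM (0.81), and Adamtsl3 at 45.05 and 26.4 CPM (-0.77), WT before Mkx-/-. Without the leading cell of each genotype the ratio of Adamts6 was 0.42, inside the limit.

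Of the enzymes that cut elastin, Mmp2 was at 412 CPM in WT against 809 CPM in Mkx-/-, which gave a log2 ratio of 0.97 (0.93 to 1.02). By cluster, the TC-like ratio was 1.91 (1.82 to 2.01), the TPC-like ratio 0.34 (0.26 to 0.41) and that of cluster 3 0.94 (0.86 to 1.03). Among TC-like cells, 58 of the 74 WT and 77 of the 80 Mkx-/- ones held a read. Mmp12, the macrophage elastase, had 341 and 74 reads (-2.26, -2.64 to -1.89), but a single cell held 86.2% of them in WT and 95.9% in Mkx-/-. Mfap3l, which shares a symbol stem but is a membrane protein, had 247 and 396 reads (0.63, 0.39 to 0.86), and its ratio was 0.48 as a mean over cells, inside the limit. None of the 8 receptor genes with enough reads was past the limit over all cells. Mfap1a and Mfap1b are nearly identical copies, and their counts are uncertain.

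**Figure D5:**
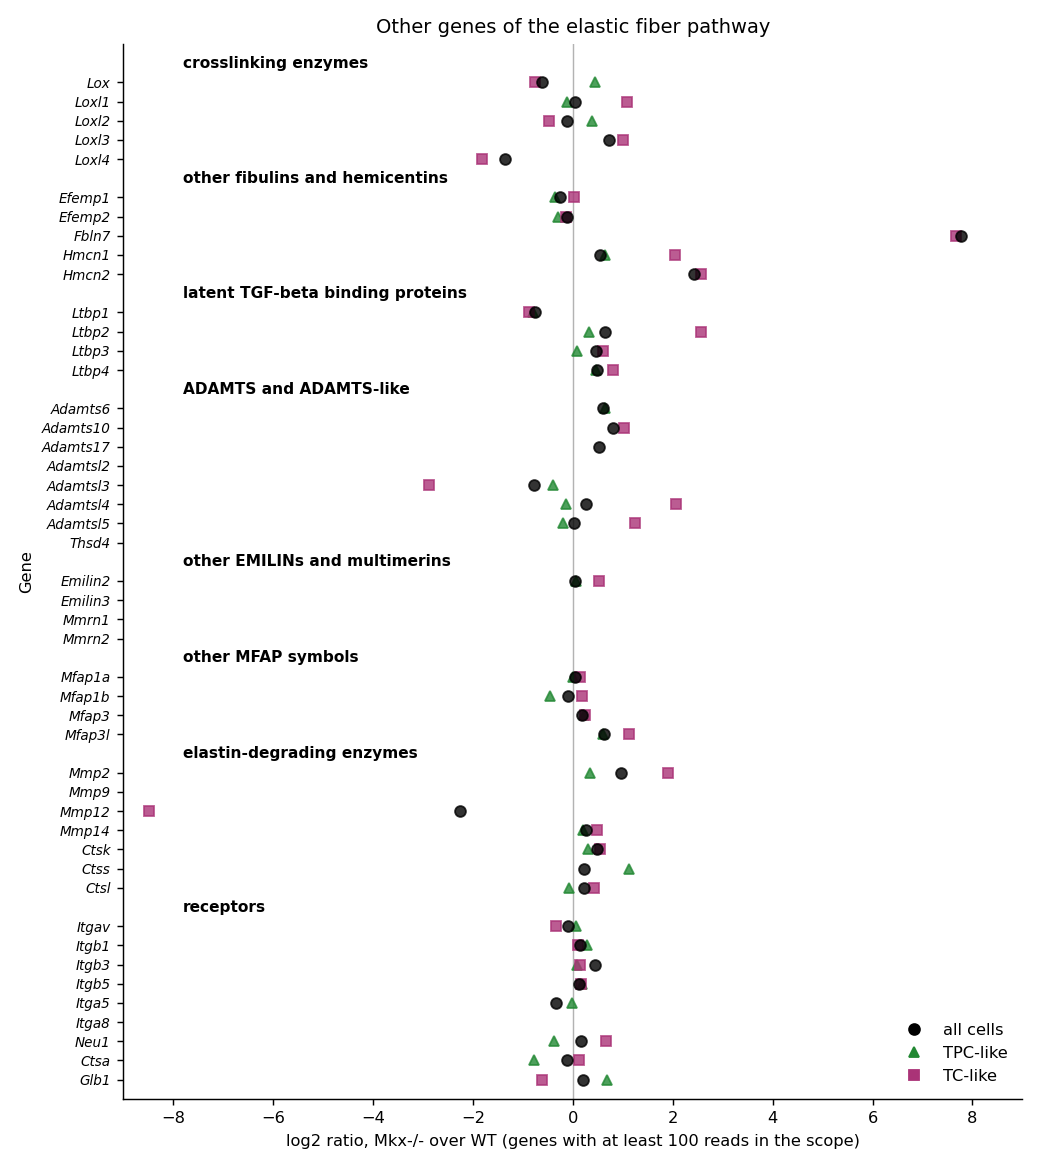
Log2 ratio of Mkx-/- over WT (x axis) for the wider list of 46 genes by role (y axis), over all cells (black circles), in TPC-like cells (green triangles) and in TC-like cells (purple squares), for genes with at least 100 reads in that group. In TC-like cells Lox lies at -0.76 and Loxl1 at 1.08; the far points of Fbln7 and Mmp12 rest on 1 read in one genotype or on single cells.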

How the data were processed

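Raw counts per gene in 451 single cells, as deposited by the authors, were the only values used. Per the study's methods, paired-end reads were trimmed, mapped with bowtie2 and counted with featureCounts. Those methods name the mm9 genome and the submitters' processing notes name mm10; the table holds no coordinates, so levels were matched by symbol alone, and gene positions are from NCBIM37 and promoters from RefSeq GRCm38.p6. Strand use and the handling of multiply mapped reads are not given in the sources used here.

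Each genotype was 1 sample, so no test was run. Reads were summed over cells and scaled to CPM. Levels have exact Poisson intervals, ratios exact conditional binomial intervals and shares Clopper-Pearson intervals, all at 95% and for counting error only. Where a group had 0 reads, its ratio used a floor of 3 reads. Cells were clustered in Seurat 5.3.0 (R 4.3.3) by canonical correlation of the genotypes, on the pooled 1000 most variable genes of either genotype, less the members and the wider list (1682 genes), 4 dimensions and a resolution of 0.4, after the study's settings. No doublet caller was run; 4 WT and 7 Mkx-/- cells had 5000 genes or more, and results without them were among the alternatives. Other steps used Python 3.11.15 with numpy 2.4.6, pandas 2.3.3 and scipy 1.17.1. The ratio step was tested on simulated data.

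All 10 members were named. Genes of the wider list were named where past the limit over all cells. Loxl1, Ltbp3, Ltbp4, Adamtsl4 and Adamtsl5 were within it and were named for their TC-like values. Others past it in TC-like cells only, such as Hmcn1, were not described. For each member read in at least 20% of cells, the 3 non-member genes of highest likeness (the smaller Spearman's rho of the genotypes) were named. Cluster markers and the 3 leading genes of each cluster were named too. The members and lists were chosen with earlier results of these data known. Alternatives were other scalings, thinning, cell filters and clusterings. The 37 mitochondrial symbols had 0 reads.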

Additional observations from a re-analysis of the deposited data

Results flagged for a closer look

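Eln, Fbn1, Mfap2 and Mfap5 had genotype ratios of opposite sign in the TPC-like and TC-like clusters, which marked them for a second look. The difference between the clusters was not tested, because the data hold 1 sample per genotype. The log2 ratio of Mkx-/- over WT, TPC-like before TC-like, was -0.38 and 0.73 for Eln, -0.12 and 0.084 for Fbn1, -0.32 and 0.28 for Mfap2, and -0.56 and 0.40 for Mfap5. Eln and Mfap5 kept this pattern under all 12 alternatives run, Fbn1 under 8 and Mfap2 under 7.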

How the results depend on the processing

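No paired analysis was possible because the labels give the cells of each genotype no shared number, animal or chip. Over all cells, the count of members past the 1.5-fold limit was 2, and 1 after thinning to 13000 reads, 1 without cells holding 3 endothelial or mural markers and 1 at a limit of 2-fold. In TPC-like cells it was 0, and 1 without those marker-holding cells and 1 when clusters were built without genes differing over 2-fold. In TC-like cells it was 3, and 1 with median-ratio scaling. The count of members lower in TPC-like and higher in TC-like Mkx-/- cells was 4, and 2 after thinning, 2 with median-ratio scaling and 2 with Col1a1, Col1a2 and Sparc left out of the totals. The count by setting was added after seeing the data, as were the checks of the wider list and the medians over genes with enough reads in both genotypes. Counts between TPC-like and TC-like cells stayed within 1.5 times under all 4 other clusterings. Of the log2 ratios under alternatives, 398 stayed within the counting interval and the others moved beyond it; the cause was not tested. No called ratio changed sign. The number of reads of Fbn2, Fbln1 and Emilin1, and the single sample per genotype, set the limit of what can be said.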
